A study of Mus musculus with 6 samples.

Results

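The genes described here are 10 of the 47561 entries listed for each library of mouse bone marrow: the heavy-chain constant genes Ighm, Ighd, Ighg3, Ighg1, Ighg2b, Ighg2c, Ighe and Igha, the kappa light-chain constant gene Igkc, and Jchain. They were taken by gene symbol, and all 10 were found. RNA-seq was done on 6 libraries of total bone marrow RNA, 3 from control mice and 3 from mice kept for 4 weeks under chronic unpredictable mild stress (CUMS), a procedure of changing mild stressors used to induce depression-like behaviour. The series is titled for vasopressin (AVP) and myelopoiesis in depression. The labels give neither strain, sex nor age, and do not say whether each library came from a separate animal, so any p-value reflects the spread among these 6 libraries, which may be technical.

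An antibody is built from heavy and light chains. The variable part of each binds antigen, and the constant part sets the class: IgM (Ighm), IgD (Ighd), IgG (the 4 gamma genes), IgE (Ighe) or IgA (Igha). A naive B cell makes IgM and IgD from 1 long transcript by alternative splicing. After activation it can cut out the DNA between switch regions, which places a constant gene farther along the locus behind the rearranged variable exon, and plasma cells, many of which live in bone marrow, then secrete the product. Jchain encodes the small protein that joins IgM and IgA units into polymers. The values are FPKM, fragments scaled by gene length and library depth, so that levels of different genes can be set side by side. They do not separate the membrane form of a chain from the secreted form.

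In CUMS marrow 3 of the 4 IgG genes rose, each more than 2-fold by the ratio of means, while Ighm had slightly lower values and Igha, Ighd and Igkc had values whose changes did not pass the test. Of the 10 genes 9 had at least 1 FPKM in 3 or more libraries and were tested with limma on log2(FPKM + 1), adjusted over all 12302 tested genes. Ighg3, Ighg1 and Ighg2c passed the adjusted threshold of 0.05, all higher, where 76 of all tested genes (0.618%) were higher and 56 (0.455%) lower. After scaling the libraries to the same summed FPKM, 65 of all genes were higher and 101 lower, and the 3 gamma genes passed again. The median log2 change of the 9 tested genes was 0.48, against -0.0017 over all tested genes. Since the samples are whole marrow, a change in the number of cells of a type and a change in RNA per cell cannot be told apart.

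**Figure D1:**
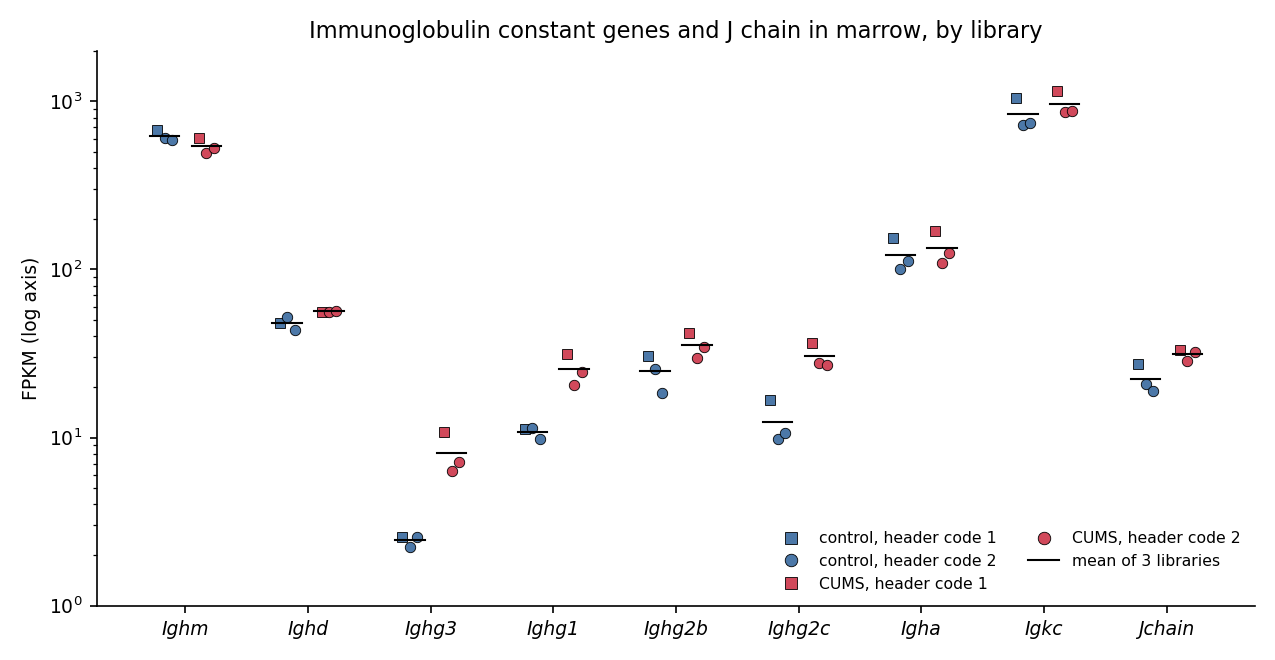
FPKM on a log axis of 9 of the 10 genes in each library, with control in blue, CUMS in red, squares for the libraries whose file header carries code 1, circles for code 2, and a bar at the mean of 3 libraries. Ighe, at 0 in 5 libraries, is left out. The CUMS points of Ighd, Ighg3, Ighg1, Ighg2c and Jchain lie above all control points, while for Ighm, Ighg2b, Igha and Igkc the groups overlap.

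The libraries held 21334 to 23224 entries above 0. Haemoglobin transcripts accounted for 28.8% to 29.2% of all FPKM in control and for 31.7% to 35.2% in CUMS, without overlap. Neutrophil genes marked the tissue as marrow, with S100a8 at 17803 to 25729 FPKM, and the B-cell gene Cd79a stood at 178 to 255 FPKM. T-cell markers were low, with Cd3e at 2.34 to 3.10 FPKM. These 3 genes stand outside the rule for named genes and were picked with their values known. The file headers also carry an unexplained code. It reads 1 in both libraries numbered 1 and 2 in the remaining 4, and replicate 1 stood apart from replicates 2 and 3 in both groups. Values within each code are therefore given beside the results.

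The order of the levels was nearly fixed. Igkc was highest in all libraries, followed by Ighm, Igha and Ighd, and the ranges of these neighbours did not overlap within either group. Below them Ighg2b and Jchain overlapped in both groups, as did Ighg2c and Ighg1, and Jchain overlapped with Ighg2c in CUMS. Ighg3 was lower than all of these in each library. Ighe was listed at 0 in 5 libraries and at 0.0986 FPKM in CUMS replicate 2, and was not tested.

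The heavy-chain genes lie on chromosome 12, on the minus strand. In RefSeq's GRCm38.p6 annotation Ighm runs from 113418826 to 113422730 and Ighd from 113407535 to 113416324. The start of Ighg3 lies 61.5 kb from that of Ighm in the direction of transcription, that of Ighg1 92.2 kb, of Ighg2b 115 kb, of Ighg2c 134 kb, of Ighe 149 kb and of Igha 162 kb. Plotted along this order, the changes were smallest at both ends of the locus and largest at Ighg3, Ighg1 and Ighg2c, with Ighg2b between them lower.

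**Figure D2:**
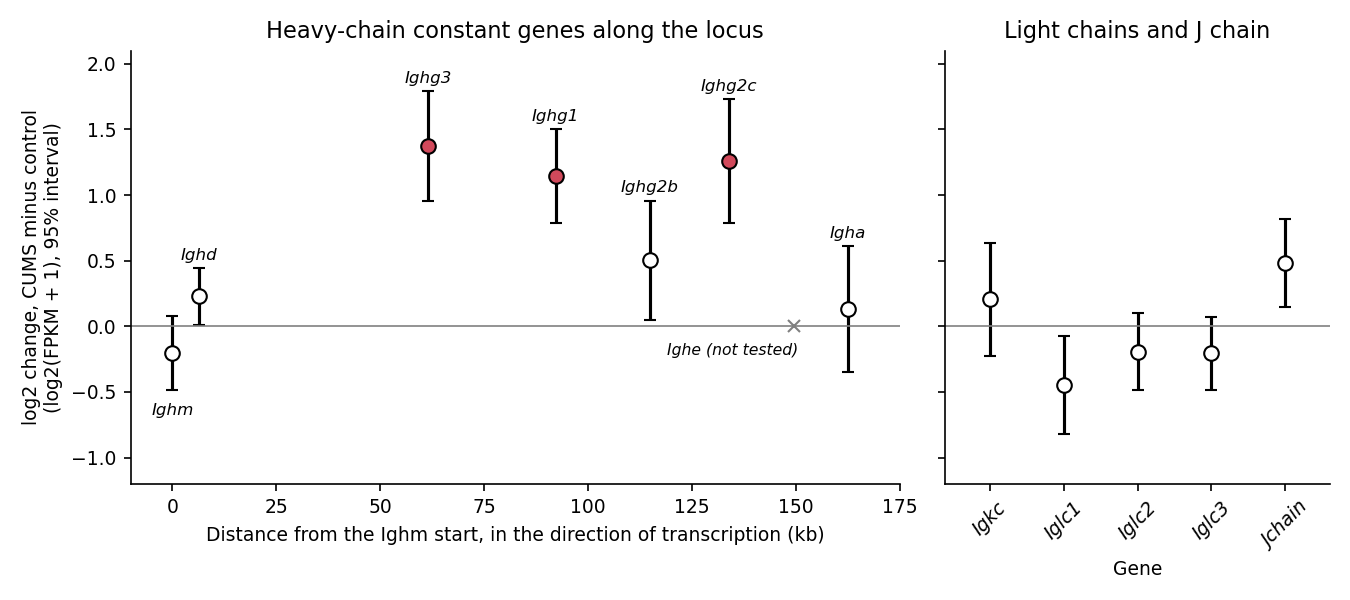
Log2 change (CUMS minus control, on log2(FPKM + 1)) with its 95% interval from limma, unadjusted, against the distance in kb from the Ighm start, with the light-chain constant genes and Jchain in the right panel. Filled points passed the adjusted threshold: Ighg3 at 1.37, Ighg1 at 1.14 and Ighg2c at 1.26. Ighm lies at -0.20 and Igha at 0.13.

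Ighm, the constant gene of IgM and of the receptor of most B cells, was at 674, 603 and 589 FPKM in control replicates 1, 2 and 3 and at 606, 491 and 528 FPKM in the CUMS replicates. The CUMS library of code 1 thus stood above 2 of the controls, and the groups overlapped. The log2 change was -0.20 (SE 0.121, 95% interval -0.48 to 0.08, limma adjusted p = 0.481). Within the header codes the differences were -0.15 in code 1 and -0.23 in code 2. In the 4 libraries of code 2 alone Ighm was lower with a limma adjusted p of 0.0370, and over 14 alternatives the adjusted p ran from 0.0370 to 0.823.

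Ighd, made from the same primary transcript as Ighm in naive B cells, was at 48.2, 52.1 and 43.7 FPKM in control and at 55.7, 56.2 and 56.8 FPKM in CUMS. All CUMS values lay above all control values, by a small margin. Among the 9 tested genes 5 had groups that did not overlap, all higher in CUMS (Ighd, Ighg3, Ighg1, Ighg2c and Jchain), where 10% of all tested genes were higher without overlap and 12.1% lower. The log2 change of Ighd was 0.23 (SE 0.0936, limma adjusted p = 0.305), and its adjusted p stayed at 0.0811 or above in all 14 alternatives. The ratio of Ighd to Ighm was 0.0774 ± 0.00791 in control and 0.105 ± 0.0115 in CUMS (mean ± SD, n = 3 libraries each), without overlap (exact permutation p = 0.1, two-sided, the smallest that 3 against 3 libraries allow). This ratio was not among those planned.

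The gamma genes encode the IgG subclasses. Their products differ most in the hinge, the flexible stretch between the first and second constant domains, which is encoded by a short exon of its own. The 4 hinge exons are printed because they show how the subclasses that moved by different amounts are told apart at the sequence level. They are exon 2 of the secreted transcript in GENCODE M21 (GRCm38, minus strand), written 5′ to 3′. Capitals mark the codons for cysteine, a residue that can bridge antibody chains.
Ighg3, chr12:113360529-113360576: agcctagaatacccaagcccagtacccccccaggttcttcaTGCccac
Ighg1, chr12:113329844-113329882: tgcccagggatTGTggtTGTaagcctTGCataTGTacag
Ighg2b, chr12:113307261-113307326: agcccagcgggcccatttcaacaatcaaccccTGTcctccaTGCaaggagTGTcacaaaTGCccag
Ighg2c, chr12:113288263-113288325: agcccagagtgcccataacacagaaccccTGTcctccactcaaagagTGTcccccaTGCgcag

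The exons run from 39 bases in Ighg1 to 66 in Ighg2b, with 1 cysteine codon in Ighg3, 4 in Ighg1, 4 in Ighg2b and 3 in Ighg2c. Over the coding exons of the secreted form the gamma genes were 75.3% to 77.4% identical in 5 of the 6 pairs and 85.9% in Ighg2b with Ighg2c. In the GENCODE transcripts no stretch of 151 bases, the read length, was shared between any of the 10 genes and another gene. With 75 bases, 20 of 2603 stretches of Ighg2b were shared with Ighg2c or Ighg3.

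Ighg3, the first gamma gene of the locus, was at 2.55, 2.24 and 2.56 FPKM in control and at 10.8, 6.35 and 7.15 FPKM in CUMS. Control libraries lay close together, and the lowest CUMS value was more than 2-fold above the highest control. The mean rose from 2.45 ± 0.182 to 8.11 ± 2.40 FPKM (3.31-fold by the ratio of means, log2 change 1.37, SE 0.180, limma adjusted p = 0.0179). The difference was 1.74 in code 1 and 1.19 in code 2.

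Ighg1 was at 11.3, 11.4 and 9.77 FPKM in control and at 31.4, 20.5 and 24.4 FPKM in CUMS. Here, too, the CUMS library of code 1 was the highest of the 6, while control replicate 1 did not stand out from the other controls. The mean rose from 10.8 ± 0.908 to 25.4 ± 5.48 FPKM (2.35-fold, log2 change 1.14, SE 0.155, limma adjusted p = 0.0196), with differences of 1.40 in code 1 and 1.02 in code 2.

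Ighg2c was at 16.7, 9.79 and 10.6 FPKM in control and at 36.4, 27.9 and 27.1 FPKM in CUMS. The libraries of code 1 were the highest of their group in both arms. The mean rose from 12.4 ± 3.79 to 30.5 ± 5.15 FPKM (2.46-fold, log2 change 1.26, SE 0.203, limma adjusted p = 0.0343), with differences of 1.08 in code 1 and 1.35 in code 2.

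Ighg2b, at 30.6, 25.7 and 18.5 FPKM, was the most abundant gamma gene of each control library. It was at 42.2, 29.7 and 34.5 FPKM in CUMS, and CUMS replicate 2 lay below control replicate 1, so the groups overlapped. The log2 change was 0.50 (SE 0.195, limma adjusted p = 0.279), with 0.45 in code 1 and 0.53 in code 2. With the header code as a term Ighg2b was higher at a limma adjusted p of 0.0292, and over its 14 alternatives the adjusted p ran from 0.0292 to 0.624.

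The 3 calls depended on having all libraries. None of the 3 passed when control replicate 2 or 3, or CUMS replicate 3, was left out (limma adjusted p from 0.0720 to 0.173). Leaving out CUMS replicate 2 kept Ighg1 alone past the threshold (limma adjusted p = 0.0450), and leaving out CUMS replicate 1 kept Ighg3 and Ighg1. Without control replicate 1 Ighg3, Ighg1, Ighg2c and Jchain passed. The log2 changes of Ighg3 stayed between 1.17 and 1.65 over all 14 alternatives, those of Ighg2c between 1.12 and 1.48, and those of Ighg1 between 0.99 and 1.28.

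With the header code as a term 5 of the 9 genes were higher (Ighg3, Ighg1, Ighg2b, Ighg2c and Jchain), where 6.06% of all genes were higher and 7.31% lower. With the replicate number as a block 4 were higher, where 3.49% of all genes were higher and 4.31% lower. In the 4 libraries of code 2, where 9.0% of all genes were higher, 6 of the 9 were higher, Igkc joining the 5. Ighm was lower there, 1 of 9 genes, where 9.07% of all genes were lower. All 9 genes had the same sign of change within both codes. Between libraries of the same replicate number, Ighm was lower in CUMS in 3 of 3 pairs and each of the other 8 genes higher in 3 of 3. For Ighd, Ighg3, Ighg1, Ighg2c and Jchain, whose groups did not overlap, both results follow from that. The sources name no pairs, and the shares of all tested genes with such signs were not computed.

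**Figure D3:**
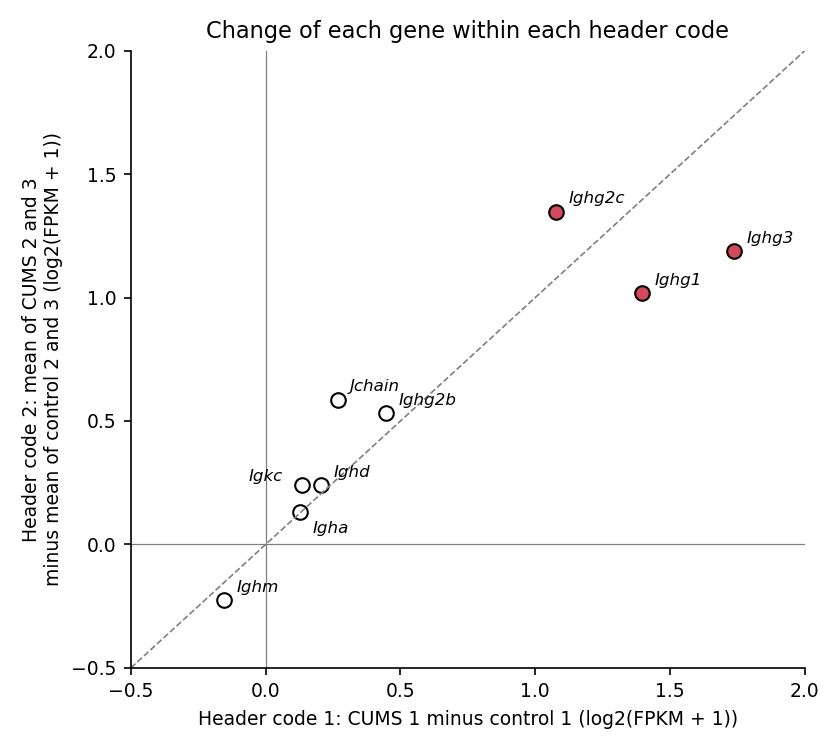
Difference between CUMS and control on log2(FPKM + 1) within header code 1 (1 library against 1, horizontal axis) and header code 2 (means of 2 libraries against 2, vertical axis), with filled points for the genes that passed the test over all libraries and a dashed line of equality. The 9 genes lie on the same side of 0 on both axes. Ighg3 and Ighg1 lie below the line, Ighg2c and Jchain above it.

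Igha, the constant gene of IgA, was the second most abundant heavy-chain gene, at 155, 100.4 and 113 FPKM in control and 169, 109 and 125 FPKM in CUMS. Each CUMS value lay slightly above the control of the same replicate number, while the groups overlapped. The fit with the replicate block gave a limma adjusted p of 0.228. The log2 change was 0.13 (SE 0.206, 95% interval -0.35 to 0.61, limma adjusted p = 0.825), and its sign turned without CUMS replicate 1 (-0.05). No alternative called it, so the gamma genes rose in libraries in which a change of Igha was not detected.

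The per-library ratio to Ighm compares the classes within each library, where scaling between libraries has no part. The log2 ratio of Ighg3 to Ighm was -7.99 ± 0.124 in control and -6.09 ± 0.253 in CUMS, a difference of 1.89. The difference was 1.53 for Ighg2c, 1.42 for Ighg1 and 0.73 for Ighg2b, each without overlap between the groups (exact permutation p = 0.1, the smallest possible). For Igha it was 0.33, and the groups overlapped (exact permutation p = 0.2). Over the 33 ratios, shares and sums computed, 26 had groups that did not overlap, and the Benjamini-Hochberg adjusted p of these was 0.127. Many of the 33 are built from the same few genes, so they are not independent and their number is no further support.

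As shares of the summed FPKM of the heavy-chain genes, Ighm made up 71.9%, 74.95% and 74.8% in control and 63.7%, 66.3% and 65.8% in CUMS. The gamma genes together made up 6.52%, 6.10% and 5.27% in control and 12.7%, 11.4% and 11.6% in CUMS. All CUMS libraries thus lay apart from all controls in both shares (exact permutation p = 0.1 each), with differences of -8.65 and 5.94 percentage points. These were -8.20 and 6.17 points in code 1 and -8.87 and 5.82 in code 2. The sum itself differed less than its spread, at 843 ± 83.0 FPKM in control and 832 ± 108 FPKM in CUMS (exact permutation p = 0.9). With Ighm left out of the sum, the gamma share was 22.8% ± 1.72 in control and 34.2% ± 0.606 in CUMS, and that of Igha 55.1% ± 4.66 and 46.0% ± 2.74. Shares of a sum depend on each other, and Igha itself averaged 123 FPKM in control and 134 in CUMS. With Ighm in the sum, the share of Igha was 14.4% and 16.0%.

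**Figure D4:**
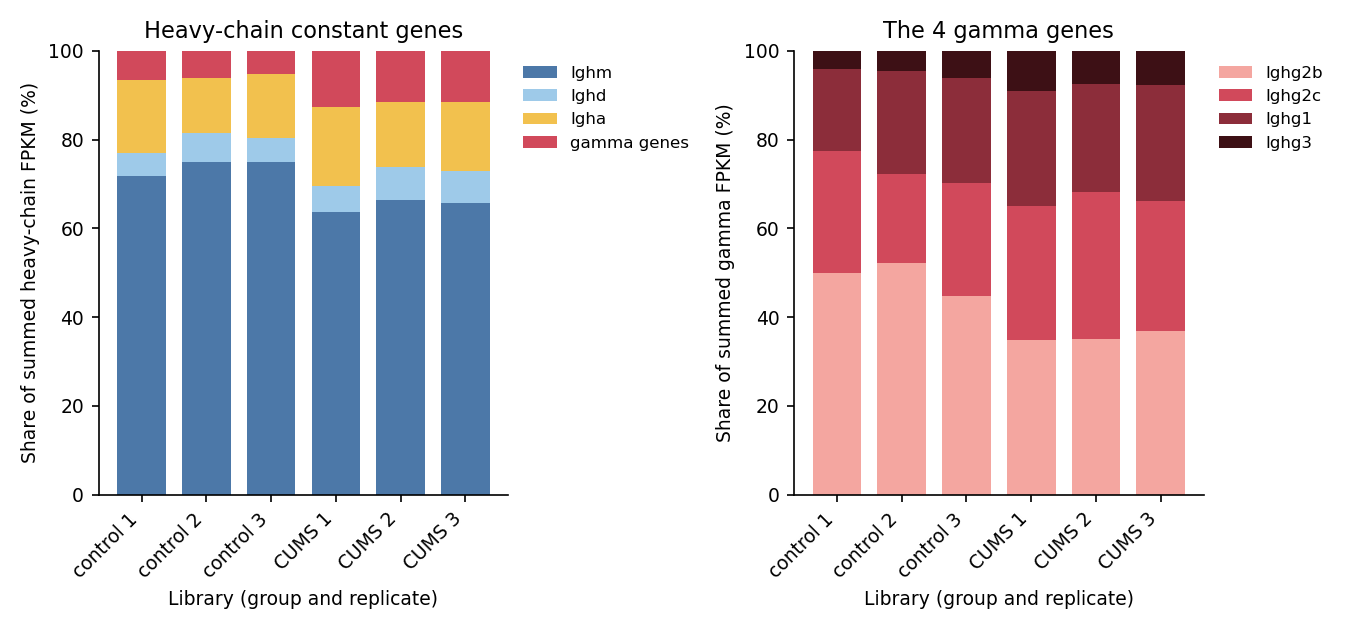
Stacked shares in each library, of the summed FPKM of the heavy-chain constant genes (left, with the gamma genes as 1 segment) and of the summed FPKM of the 4 gamma genes (right). The gamma segment is 5.27% to 6.52% in control and 11.4% to 12.7% in CUMS, and within it Ighg2b is 44.7% to 52.3% in control and 34.9% to 37.0% in CUMS.

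Ighg2b took 50.0%, 52.3% and 44.7% of the summed gamma FPKM in control and 34.9%, 35.2% and 37.0% in CUMS. The share of Ighg2c went from 24.3% ± 3.86 to 30.8% ± 2.02, that of Ighg1 from 21.7% ± 2.85 to 25.5% ± 1.04 and that of Ighg3 from 4.96% ± 1.06 to 8.05% ± 0.802. None of the 4 shares overlapped between the groups (exact permutation p = 0.1 each), and the sum went from 50.6 ± 9.95 to 99.5 ± 18.9 FPKM. Ighg2b kept the largest share in each library.

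Igkc, on chromosome 6 (70726435 to 70726754), is the constant part of the kappa chain, which most mouse antibodies carry. It was at 1048, 727 and 747 FPKM in control and 1152, 859 and 880 FPKM in CUMS. Both libraries of code 1 were the highest of their group, and the groups overlapped. The log2 change was 0.20 (SE 0.185, limma adjusted p = 0.657), with 0.14 in code 1 and 0.24 in code 2. The lambda constant genes pointed the other way: Iglc1, Iglc2 and Iglc3 had log2 changes of -0.44, -0.19 and -0.21 (limma adjusted p = 0.251, 0.527 and 0.474). With the replicate number as a block Iglc1 fell (limma adjusted p = 0.0273). The fourth of them, the pseudogene Iglc4, was not tested.

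The ratio of Igkc to the summed Iglc1, Iglc2 and Iglc3, chosen after the values were seen, was 3.31, 2.99 and 3.21 in control and 5.00, 4.26 and 4.10 in CUMS, without overlap (exact permutation p = 0.1). The variable segments pointed the same way: summed Igkv FPKM was 620.0 to 730.1 in control and 815 to 905 in CUMS, and summed Iglv FPKM 124 to 138 and 94.3 to 100.2. Summed Ighv FPKM was 555 to 657 in control and 674 to 748 in CUMS.

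Jchain, on chromosome 5 (88519809 to 88527897), was at 27.4, 20.96 and 18.9 FPKM in control and at 33.2, 28.5 and 32.4 FPKM in CUMS. All CUMS libraries lay above all controls, control replicate 1 coming closest. The log2 change was 0.48 (SE 0.144, 95% interval 0.15 to 0.81, limma adjusted p = 0.177), with 0.27 in code 1 and 0.59 in code 2. Jchain rose with the replicate block (limma adjusted p = 0.0383), with the header code as a term (0.0154), in code 2 alone (0.00717) and without control replicate 1 (0.0398), and over the 14 alternatives the adjusted p ran from 0.00717 to 0.513.

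The J chain binds to the tail piece at the end of the secreted mu and alpha chains, through the cysteine before the last residue, and IgG lacks this tail. The coding ends are printed for Ighm and Igha to show the partner sites of Jchain, from the secreted transcripts in GENCODE M21 (GRCm38, minus strand), 5′ to 3′, without the stop codon and with the codon of that cysteine in capitals.
Ighm, chr12:113420870-113420923: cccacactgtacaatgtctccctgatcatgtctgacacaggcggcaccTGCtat
Igha, chr12:113258771-113258824: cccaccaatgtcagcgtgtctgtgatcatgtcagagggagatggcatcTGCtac

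The ends share 35 of 54 bases, and neither of these 2 genes passed the test over all libraries. The ratio of Jchain to the sum of Ighm and Igha, also chosen after the values were seen, was 0.0331, 0.0298 and 0.0269 in control and 0.0428, 0.0475 and 0.0496 in CUMS. The groups did not overlap (exact permutation p = 0.1). Plasma cells of any class can transcribe Jchain, and the class of the cells that did so here was not tested.

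Across the 6 libraries the genes whose log2 values followed Jchain most closely, among 12077 whose log2 values averaged 1 or more, were Gm14494, Ighv1-39, Olfm4, Slc31a1 and Ddx18 (Pearson r 0.995 to 0.986). Of the other constant genes Ighg2b and Ighg2c came closest (r = 0.942 and 0.941), and Ighm was at -0.23. The closest to Ighd were Sh2d2a, H3c3, Zfp24, Kpna3 and LOC115489082 (r 0.994 to 0.980). With 6 points that share 2 groups and 2 header codes these are descriptions only.

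None of the other plasma cell genes passed the test. Of 20 listed 17 were tested with limma, 13 with values towards lower and a median log2 change of -0.11. At an unadjusted p under 0.05 there were 1 higher and 4 lower, against 864 and 1034 of all 12302 tested genes. Without overlap between the groups 1 of the 17 was higher and 5 lower, where 10% of all tested genes were higher and 12.1% lower. Pou2af1, a coactivator of immunoglobulin promoters, was at 45.5 ± 1.91 FPKM in control and 35.6 ± 1.63 in CUMS (log2 change -0.35, limma adjusted p = 0.117, with the replicate block 0.0285). Slamf7, a surface receptor of plasma cells and other leukocytes, was at 6.83 ± 0.951 and 4.46 ± 0.539 FPKM (-0.52, limma adjusted p = 0.119, with the block 0.0247). Sdc1, the plasma cell marker CD138, and Pim2, a survival kinase, had log2 changes of -0.29 and -0.30 (limma adjusted p = 0.297 and 0.266). Prdm1, the master regulator of the plasma cell, and Tnfrsf17, its receptor BCMA, were at most 0.590 and 0.289 FPKM in any library and were not tested; they lie outside the rule for named genes and were picked after their values were seen.

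Of 20 mature B-cell genes, all tested with limma, none passed in either direction (14 towards lower, median -0.14, with 1 higher and 5 lower at an unadjusted p under 0.05). Spib, a transcription factor of B cells and plasmacytoid dendritic cells, was at 68.7 ± 7.25 and 48.9 ± 1.88 FPKM (log2 change -0.48, limma adjusted p = 0.0786, with the block 0.0167). Blnk, an adaptor of B-cell receptor signalling, had a log2 change of -0.34 (limma adjusted p = 0.161, with the block 0.0336). Bank1, a scaffold of the same pathway, had a log2 change of 0.39 (limma adjusted p = 0.140, with the block 0.0486). With the block 1 of the 20 rose and 5 fell, against 429 and 530 of all 12302 tested genes. Without overlap between the groups 1 of the 20 was higher and 10 lower, where 10% of all tested genes were higher and 12.1% lower.

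**Figure D5:**
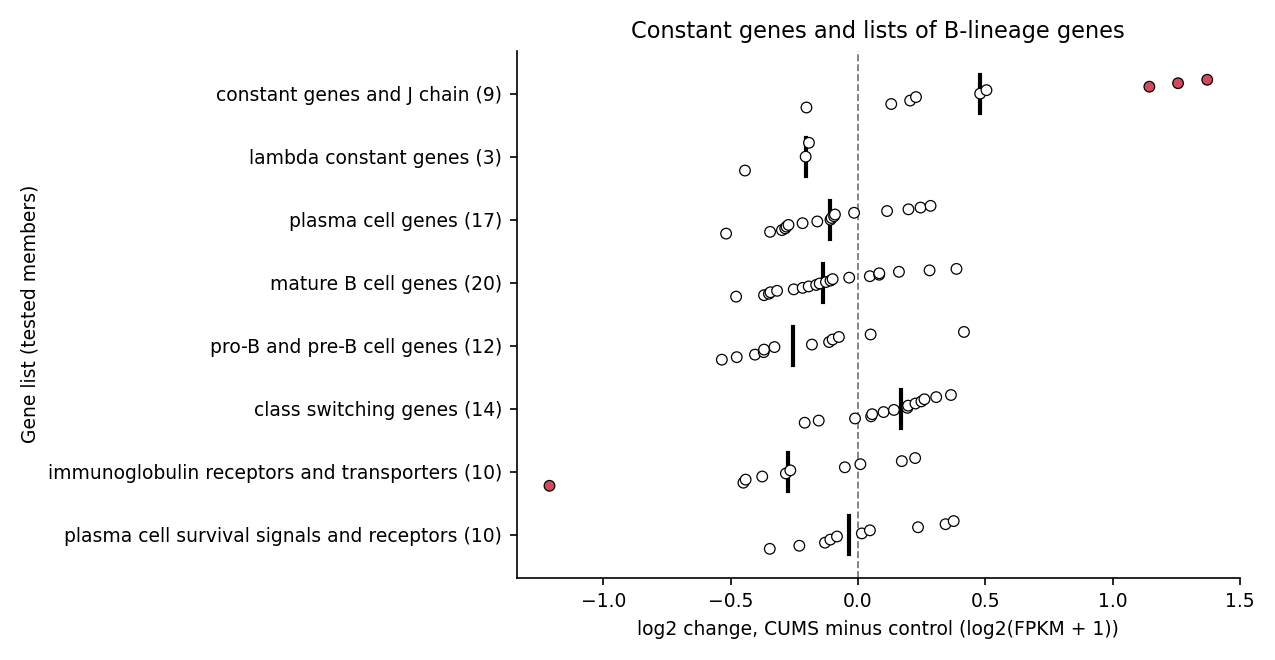
Log2 change (CUMS minus control, on log2(FPKM + 1)) of each tested gene of the constant genes with Jchain and of 7 related lists, with filled points for genes past the adjusted threshold, a black bar at each median and a dashed line at the median of all tested genes. The 9 tested constant genes and Jchain together have a median of 0.48, and the lists of plasma, mature B and early B cells have medians from -0.11 to -0.25.

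Among 12 genes of pro-B and pre-B cells, all tested with limma, none passed either (10 towards lower, median -0.25, with 1 higher and 5 lower at an unadjusted p under 0.05). Rag2, a subunit of the recombinase that joins variable segments, was at 2.21 ± 0.124 FPKM in control and 1.21 ± 0.0435 in CUMS (log2 change -0.53, limma adjusted p = 0.0725, with the block 0.0246). Dntt, which adds bases at the joints, and Vpreb3 had log2 changes of -0.48 and -0.37 (limma adjusted p = 0.151 and 0.243, with the block 0.0226 and 0.0228). Il7r, the receptor of the growth factor of early B cells, also made by T cells, had one of 0.42 (limma adjusted p = 0.154, with the block 0.0247). With the block 1 of the 12 rose and 4 fell, against the same 429 and 530 of all genes. Without overlap between the groups 1 of the 12 was higher and 5 lower, against the same 10% and 12.1% of all genes.

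Genes of class switching, the DNA reaction that moves a B cell from IgM to another class, were mostly repair factors that all dividing cells use. Of 15 genes 14 were tested with limma and none passed (11 towards higher, median 0.17, with 1 higher and 0 lower at an unadjusted p under 0.05). Xrcc5, the Ku80 subunit of end joining, had a log2 change of 0.37, the mismatch repair gene Msh6 0.23, and the nuclease gene Exo1 0.25 (limma adjusted p = 0.219, 0.381 and 0.404).

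Of the receptors and transporters that bind antibodies, 10 of 12 were tested. Without overlap between the groups 5 of the 10 were lower and 0 higher, where 12.1% of all tested genes were lower and 10% higher. By the test 1 fell, where 0.455% of all tested genes were lower. This was Fcgr1, which encodes the Fc receptor that binds single IgG molecules tightly. It went from 5.82 ± 0.706 to 1.94 ± 0.140 FPKM (log2 change -1.21, SE 0.119, limma adjusted p = 0.00717), in the opposite direction to the IgG genes. It missed the threshold when control replicate 3 (limma adjusted p = 0.0662) or CUMS replicate 3 (0.0550) was left out. Fcgrt, the neonatal receptor that protects IgG from breakdown, had a log2 change of -0.44, Trim21, a cytosolic antibody receptor, -0.45, and Fcer1g, the signalling chain shared by Fc receptors, -0.28 (limma adjusted p = 0.0815, 0.131 and 0.274). With the block Fcgrt fell as well (limma adjusted p = 0.0333). Monocyte markers did not move as one. Of 8 tested, 6 had values towards lower and 2 towards higher. Without overlap between the groups 5 of the 8 were lower and 1 higher, against the same 12.1% and 10% of all genes. Cx3cr1 and Csf1r fell (log2 changes -1.10 and -0.62, limma adjusted p = 0.00817 and 0.0338, past the threshold in 11 and 8 of 14 alternatives). Ccr2 had a log2 change of -0.51 (limma adjusted p = 0.0701, with the block 0.0196). Cd14, a coreceptor for lipopolysaccharide, was at 9.79 FPKM on average in control and 16.0 in CUMS, without overlap (log2 change 0.66, limma adjusted p = 0.109, with the block 0.00704). The summed FPKM of the 8, most of it Lyz2, was 5841 to 8065 in control and 4693 to 5583 in CUMS. The part of monocytes in the Fc receptor values was not tested.

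None of the 10 survival signals and receptors of plasma cells tested with limma passed, of 12 listed (median -0.03, with 1 higher and 0 lower at an unadjusted p under 0.05). Cxcl12, the stromal chemokine that holds plasma cells in marrow, was at 43.1 ± 3.79 and 54.8 ± 2.07 FPKM (log2 change 0.34, limma adjusted p = 0.151, with the block 0.0320). Its receptor Cxcr4, Il5ra and Tnfsf13b, the cytokine BAFF, had log2 changes of 0.24, 0.38 and -0.35 (limma adjusted p = 0.340, 0.335 and 0.347). T-cell, neutrophil and erythroid markers gave no call with limma among 8 tested each, with medians of 0.10, -0.09 and 0.18; at an unadjusted p under 0.05 there were 2 T-cell markers higher and 0 of the other lists. The summed FPKM of the mature B-cell list was 939 to 1012 in control and 800 to 866 in CUMS. That of the early B-cell list was 192 to 215 and 161 to 173. Each sum weighs abundant genes most, such as Cd79a (control mean 236 FPKM) and Vpreb3 (86.1 FPKM). In the lists 14 of 20 and 10 of 12 genes had values towards lower, and 6 and 2 towards higher. The part of these cell types in the result was not tested.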

How the data were processed

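Total RNA of mouse bone marrow was extracted with TRIzol, made into TruSeq libraries and sequenced as paired reads of 151 bp, per the labels' protocols. Per the submitters' processing notes, the build was mm10 and the tools included HISAT2 2.1, featureCounts 1.6.4 and cutadapt 1.16.5, with no role given; the step that gave the deposited values and the strand setting are not given in the sources used here. The deposited values were read as FPKM from the values themselves: they are not whole and sum to 561563 to 658595 per library. At best 28.7% to 31.8% of low values of short entries fell within 0.1 of a whole multiple of 1 step, so counts were not recovered, the depth is unknown and no counting intervals are given.

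The 12302 genes that reached 1 FPKM in 3 or more libraries were tested by limma-trend (limma 3.58.1, R 4.3.3) on log2(FPKM + 1) with group as the only term, adjusted by Benjamini-Hochberg over all tested genes, with a threshold of 0.05. Fold changes on this scale understate those of low genes. Its script was first tested on simulated data. Shares, ratios and sums were compared by two-sided exact permutation (Python 3.11.15, scipy 1.17.1). Positions came from RefSeq (GRCm38.p6), and sequences and exons from GENCODE M21, both of the build mm10.

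Same-numbered libraries deviated together from their group means (correlations over genes of 0.689, 0.452 and 0.363), so the replicate block is given where it changes a call. Replicates 2 and 3 correlated as much when crossed (0.459 and 0.362), and only replicate 1 carried header code 1. The genes and the 11 lists (127 entries, all found) were chosen with earlier results of these data known. Named were all 10 genes, from each list its called members, filled up to 4 by the smallest p, and the 5 genes most like Jchain and Ighd. For the T-cell, neutrophil and erythroid lists the text gives only summaries, and some genes that the rule names are not reported here. Alternatives were another pseudocount, no filter, 3 other scalings, the block, the header code and leaving out each library.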

Additional observations from a re-analysis of the deposited data

How the results depend on the processing

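Of the constant genes and Jchain together, the number called higher was 3 and stayed 3 with a pseudocount of 0.1 and with all 3 other scalings. Without the filter on low values it was 0, with 27669 genes tested, and the cause of this loss was not tested. It was 4 with the replicate block, 5 with the header code as a term, and 6 with 1 lower in code 2 alone. Leaving out 1 library gave 0 to 4. Over all tested genes 18 were higher and 18 lower without the filter, 429 and 530 with the block, 746 and 899 with the header code, and 1085 and 1093 in code 2 alone. Lower genes numbered 101 after scaling to the same sum and 91 with quantile normalization. Leaving out 1 library gave 7 to 158 higher and 5 to 97 lower; the cause was not tested. The block changed no call among the 10 genes but that of Jchain.

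Among the log2 changes of the 9 tested genes 101 of the alternatives kept sign and side of the threshold, 15 lost a call, 8 gained one and 2 turned sign, both for Igha (-6.39e-05 without control replicate 2 and -0.047 without CUMS replicate 1, in a range up to 0.31 without control replicate 1). The neutrophil gene Camp turned to 0.059 with quantile normalization. The difference in summed heavy-chain FPKM ran from -71.5 without CUMS replicate 1 to 36.1 without control replicate 1, and was 34.2 and 2.51 without CUMS replicate 2 and 3. As shares of the sum without Ighm, Ighd and Igha had differences of -2.30 and -9.11 points, against 1.12 and 1.59 points with Ighm in the sum. The shares of Ighm and of the gamma genes kept their direction in each alternative run. With 3 libraries a group and no counts, the spread between libraries limits what can be detected, most of all for Ighe.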
